A study of Homo sapiens with 20 samples.

Results

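The regions described here are cohesin peaks that lay at the starts of protein-coding genes. A peak was a member when it overlapped, by at least 1 bp, the 1 kb on either side of a protein-coding gene start of GENCODE 44 on chromosomes 1 to 22 and X of hg38. Of 188301 peaks on these chromosomes in 6 lists, 13710 were members, and they are compared with the other peaks of the same lists, with the starts of lncRNA genes and with the ends of protein-coding genes. The lists come from chromatin immunoprecipitation with sequencing (ChIP-seq), in which an antibody recovers the DNA bound by a protein, against the cohesin subunits RAD21, SA1 and SA2. CHM13, an hTERT-immortalised line derived from a complete hydatidiform mole, was profiled in 3 replicates per subunit, and hTERT RPE-1, an immortalised line of retinal pigment epithelium, in 2 replicates per subunit. Each line also had total chromatin as input, no group was treated, and each line is a single cultured line. The RAD21 antibody was not the same in the 2 lines, and only the CHM13 chromatin held Drosophila chromatin as an internal control. The chromatin of the 2 lines was also sheared on different sonicators. Cell line, RAD21 antibody, shearing, number of replicates and depth therefore cannot be told apart. A list holds positions and no scores and pools its replicates, so replicate error cannot be given, no test was made, and all intervals below are 95% intervals of counting error. Peak lists hold no expression, so the identity of the lines could not be checked with marker genes.

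Cohesin is a ring built from SMC1A, SMC3 and RAD21, to which either SA1 (gene STAG1) or SA2 (gene STAG2) is bound. It is loaded on chromatin with the help of NIPBL, extrudes DNA loops and holds sister chromatids together. The DNA-binding protein CTCF halts it at sites with a defined orientation, and cohesin is also known from active gene starts, which in human cells often lie in CpG islands. Many CpG island starts are bound by factors of the ETS family, which recognise CCGGAAGT, or lie beside a second start on the opposite strand, an arrangement called divergent (here, a start on the other strand within 1 kb upstream).

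The first sequences shown are matches to the CTCF core consensus (14 letters, degenerate) at gene starts that had a peak in all 6 lists, because CTCF sites are the best known stopping points of cohesin. There were 228 such genes, and 19 of them had a match upstream of the start, outside every annotated exon and inside the CHM13 RAD21 peak. The 6 matches nearest the centre of that peak are printed from the hg38 reference, 5′ to 3′ on the strand of the match, with the match in capitals and 20 bases on either side.
C1QC: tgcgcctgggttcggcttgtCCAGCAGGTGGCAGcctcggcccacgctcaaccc
PLXNB3: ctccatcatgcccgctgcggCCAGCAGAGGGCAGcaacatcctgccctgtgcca
ABCC12: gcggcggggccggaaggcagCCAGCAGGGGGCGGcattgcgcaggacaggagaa
KCTD14: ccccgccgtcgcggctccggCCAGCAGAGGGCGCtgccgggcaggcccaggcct
EIF3C: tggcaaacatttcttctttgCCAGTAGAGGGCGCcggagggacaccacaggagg
AHCYL1: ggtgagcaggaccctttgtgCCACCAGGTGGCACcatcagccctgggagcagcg

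The C1QC sequence (a chain of complement C1q) lies at chr1:22642180-22642233 on the minus strand, with its match 808 bp upstream of the start of this plus-strand gene. The PLXNB3 sequence (a semaphorin receptor) is at chrX:153764089-153764142 on the plus strand, 81 bp upstream of a plus-strand gene. At ABCC12 (a membrane transporter gene) it is at chr16:48156893-48156946 on the minus strand, 901 bp upstream of a minus-strand gene. The KCTD14 sequence is at chr11:78046346-78046399 on the minus strand, 181 bp upstream of a minus-strand gene. The EIF3C sequence (a subunit of translation initiation factor 3) is at chr16:28688467-28688520 on the plus strand, 65 bp upstream of a plus-strand gene, which has a near-identical copy among which reads may be divided. The AHCYL1 sequence is at chr1:109984563-109984616 on the minus strand, 176 bp upstream of a plus-strand gene. At PLXNB3 the 6 peak centres lay between -88 and -62 bp from the start, in a CHM13 RAD21 peak of 695 bp and an RPE-1 SA2 peak of 240 bp. The match, 81 bp upstream, lay near the centres of both lines. Its nearness to the CHM13 RAD21 centre was set by the choice of matches.

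The second set shows CCGGAAGT at gene starts where CHM13 cells had an SA1 peak within 1 kb but neither a RAD21 nor an SA2 peak, a combination described further below. Of 730 such genes, 33 had a match upstream of the start, inside the SA1 peak and with its flanks outside every annotated exon. The 5 nearest to the centre of the peak follow, again 5′ to 3′ on the strand of the match, with the 8 letters of the motif in capitals and 20 bases on either side.
CHCHD2: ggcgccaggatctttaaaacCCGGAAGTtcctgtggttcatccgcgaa
ERCC5: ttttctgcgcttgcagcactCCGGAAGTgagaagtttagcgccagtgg
GNL1: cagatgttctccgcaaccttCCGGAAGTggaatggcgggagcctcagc
LNP1: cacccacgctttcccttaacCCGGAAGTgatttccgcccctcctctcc
LAS1L: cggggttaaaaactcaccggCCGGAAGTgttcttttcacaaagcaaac

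The CHCHD2 sequence (a mitochondrial protein) is at chr7:56106639-56106686 on the plus strand, 186 bp upstream of a minus-strand gene. The ERCC5 sequence (a nucleotide excision repair nuclease) is at chr13:102845726-102845773 on the minus strand, 82 bp upstream of a plus-strand gene. At GNL1 it is at chr6:30557199-30557246 on the plus strand, 733 bp upstream of a minus-strand gene. At LNP1 it is at chr3:100401166-100401213 on the minus strand, 343 bp upstream of a plus-strand gene. Both of these starts are divergent, with PRR3 and TOMM70 (the mitochondrial import receptor) on the other side. The LAS1L sequence (ribosome biogenesis) is at chrX:65534903-65534950 on the plus strand, 116 bp upstream of a minus-strand gene. The SA1 peaks at these starts were 373 to 599 bp wide.

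Peaks were more frequent at protein-coding starts than a uniform placement would give in all 6 lists. The expectation was calculated peak width by peak width over the sequence without N of the same chromosome. In CHM13 cells, 6122 of 73739 RAD21 peaks were at starts, 8.30% (8.11 to 8.50), against 1.81% expected, a ratio of 4.59 (4.48 to 4.71). For CHM13 SA1 the share was 8.04% (7.78 to 8.32) of 38153 peaks, a ratio of 4.68 (4.51 to 4.85). CHM13 SA2 had a lower share, 6.05% (5.83 to 6.27) of 44374 peaks, and a ratio of 3.58 (3.44 to 3.72). The order of SA1 and SA2 was thus outside their counting intervals, although the SA2 list was the longer of the pair.

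In RPE-1 cells the ratio of RAD21 was close to that of CHM13 cells, at 4.50 (4.25 to 4.77), with 1162 of 14939 peaks or 7.78% (7.36 to 8.22) at starts. The SA subunits were lower. SA1 had 383 of 10707 peaks at starts, 3.58% (3.24 to 3.95), a ratio of 2.28 (2.06 to 2.53), and SA2 had 291 of 6389, 4.55% (4.07 to 5.09), a ratio of 2.79 (2.47 to 3.12). The RPE-1 SA2 list on hg38 held 0.670 of the number of peaks of its list on CHM13 v1.0, whereas this ratio was 0.933 to 1.04 for the other lists, and its part in the RPE-1 SA2 values was not tested. On each of the 23 chromosomes the count was above the expectation in the 3 CHM13 lists and for RPE-1 RAD21. The exceptions in the remaining lists were chromosome 21 for RPE-1 SA1, with 1 peak at starts against 1.46 expected, and chromosome 22 for RPE-1 SA2, with 3 against 3.13. For CHM13 RAD21 the ratio ran from 3.11 on chromosome 19 to 6.91 on chromosome 13, with a median of 4.93.

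Counted over genes, 33.1% of the 19970 protein-coding genes had a CHM13 RAD21 peak at the start (6601 genes). The share was 17.7% for CHM13 SA1 (3526 genes) and 14.0% for CHM13 SA2 (2800 genes). RPE-1 RAD21 was found at 6.22% (1242 genes), RPE-1 SA1 at 2.03% (405 genes) and RPE-1 SA2 at 1.57% (313 genes). These shares are the background for every gene group below. At most 3 peaks of a list lay at the same gene, and 6.01% to 17.1% of the peaks at starts served 2 or more genes, the highest share being that of CHM13 SA1. No list had a peak at the start of 12591 genes, and 7343 genes had a CHM13 peak of any subunit against 1270 with an RPE-1 peak.

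Protein-coding starts had peaks more often than lncRNA starts in 4 lists but not in the RPE-1 SA lists, and more often than gene ends in all 6. For CHM13 RAD21, lncRNA starts whose windows met no protein-coding window had a peak in 15.7% (15.2 to 16.3), and protein-coding gene ends away from starts in 9.50% (9.08 to 9.95). For CHM13 SA1 these shares were 7.45% and 5.50%, and for CHM13 SA2 they were 8.80% and 5.69%. RPE-1 RAD21 showed the same order with 3.91% (3.61 to 4.23) at lncRNA starts and 3.24% (2.98 to 3.51) at ends. RPE-1 SA1 had 2.18% (1.97 to 2.43) at lncRNA starts and RPE-1 SA2 had 1.65% (1.46 to 1.86), and both intervals overlapped those of protein-coding starts, 1.84 to 2.23 and 1.40 to 1.75. At gene ends RPE-1 SA1 was at 1.63% (1.45 to 1.83) and RPE-1 SA2 at 1.16% (1.02 to 1.34).

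**Figure D1:**
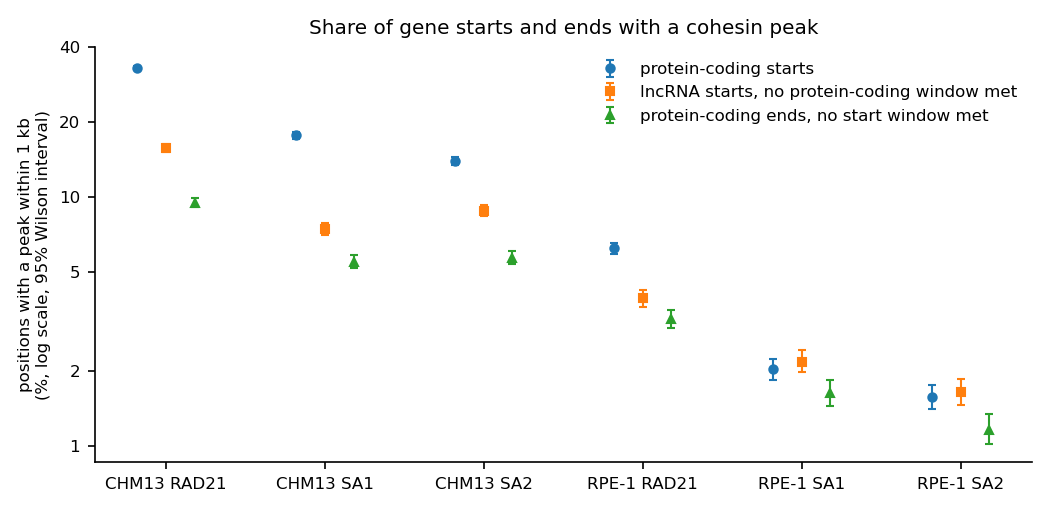
Share of protein-coding gene starts, lncRNA gene starts and protein-coding gene ends with a peak within 1 kb, by list, on a log scale with 95% Wilson intervals of counting error. In the CHM13 lists and RPE-1 RAD21 the starts of protein-coding genes lie above the other positions, and in RPE-1 SA1 and SA2 they lie level with lncRNA starts.

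The position of the peaks relative to the start differed between the lines. Distances run from the nearest start to the peak centre, positive in the direction of transcription. CHM13 RAD21 centres lay downstream in 67.2% (66.1 to 68.4) with a median of 169 bp and quartiles of -74 and 492 bp. SA1 in the same cells was nearer to the start, with a median of 40 bp, quartiles of -114 and 299 bp and 57.0% (55.3 to 58.8) downstream. SA2 had a median of 59 bp with quartiles of -211 and 461 bp. In RPE-1 cells the centres were mostly upstream, with RAD21 at a median of -96 bp, SA1 at -152 bp and SA2 at -127 bp. There, 36.6% (33.9 to 39.4) of RAD21 and 28.6% (23.7 to 34.1) of SA2 centres were downstream, and of SA1 centres 26.1%, 100 of 383.

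The same was seen in the density of centres in bins of 250 bp. The highest bin of CHM13 RAD21 was the first one downstream, with 313 centres per Mb, 11.2 times the density at 20 to 50 kb from any start, and the second one downstream still held 233 per Mb. CHM13 SA1 peaked in the first bin downstream at 186 per Mb, 12.9 times its distant density, and held 171 per Mb in the first bin upstream, but no more than 63.5 per Mb in the next one downstream. The highest bin of the other 4 lists was the first one upstream, at 7.39 times the distant density for CHM13 SA2, 10.3 times for RPE-1 RAD21, 5.05 times for RPE-1 SA1 and 6.05 times for RPE-1 SA2. In RPE-1 SA1 the density dropped from 26.1 per Mb in the first bin upstream to 6.00 in the first one downstream and 2.78 in the second, where the distant density was 5.17. In CHM13 RAD21 most of the excess was within 1 kb, at 5.26 times the distant density, where 1 to 2 kb from the start held 1.43 times and 2 to 5 kb held 1.07 times the distant density.

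**Figure D2:**
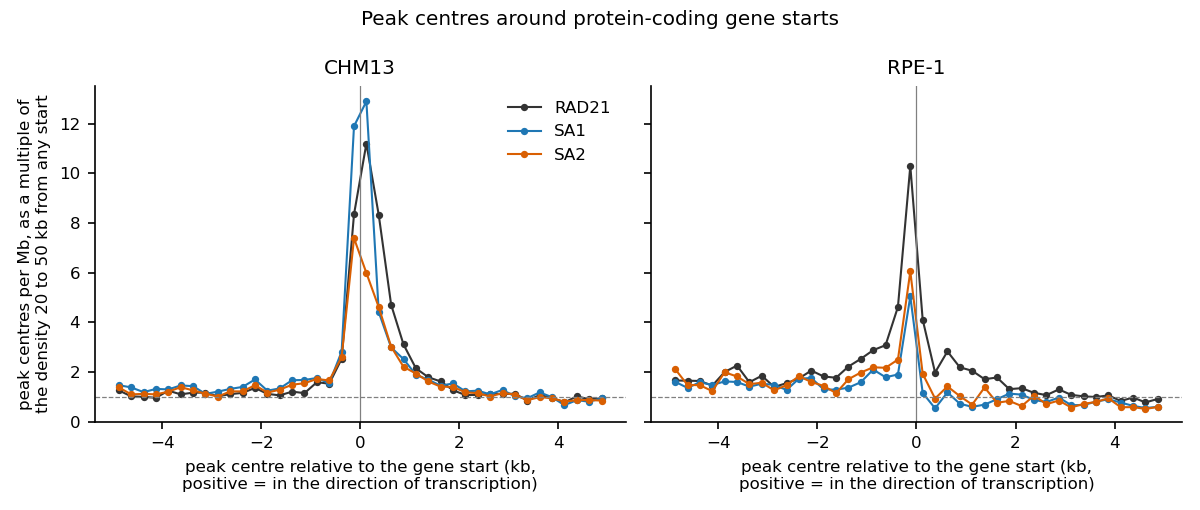
Density of peak centres in bins of 250 bp out to 5 kb on either side of the nearest protein-coding start, as a multiple of the density at 20 to 50 kb from any start (dashed line at 1). CHM13 RAD21 extends downstream, CHM13 SA1 forms a narrow peak over the start with a maximum of 12.9, and the RPE-1 lists are highest just upstream.

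Peaks at starts were also wider than other peaks in CHM13 cells. The median width of CHM13 RAD21 peaks was 894 bp at starts and 714 bp elsewhere, and 13.8% at starts were over 2 kb wide against 2.14% elsewhere. Among peaks whose centre lay in the window the median was 887 bp. SA1 and SA2 gave 676 against 608 bp and 668 against 605 bp. Widths in RPE-1 cells hardly differed, where RAD21 gave 447 against 443 bp, SA1 404 against 397 bp and SA2 350 against 360 bp. The widest CHM13 RAD21 peaks at starts were at KLF6 (a zinc-finger transcription factor), 14014 bp at chr10:3773445-3787458, FLRT2 (a cell adhesion protein), 10399 bp, EXT1 (heparan sulfate synthesis), 7959 bp, CITED2 (a transcriptional co-regulator), 7885 bp, and GADD45A (a stress response gene), 7776 bp. At KLF6 the SA1 peak was 5582 bp and the SA2 peak 1708 bp wide, and no RPE-1 list had a peak there. CITED2 was the gene among these 5 with an RPE-1 peak, RAD21 at 1800 bp.

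At gene starts RAD21 peaks overlapped an SA1 or SA2 peak less often than elsewhere. In CHM13 cells 54.4% (53.1 to 55.6) of RAD21 peaks at starts did so against 63.0% (62.6 to 63.3) elsewhere, a difference of -8.60 percentage points (-9.90 to -7.30). In RPE-1 cells it was 37.4% (34.7 to 40.3) against 63.5% (62.7 to 64.3), a difference of -26.1 points (-29.0 to -23.2). At 20 to 50 kb from any start the shares were 63.7% in CHM13 and 64.7% in RPE-1 cells, and at lncRNA starts away from protein-coding starts 61.4% and 57.2%. Gene ends away from starts gave 68.5% (66.2 to 70.8) in CHM13 and 52.7% (48.5 to 56.9) in RPE-1 cells. In RPE-1 cells the share at gene ends was thus also below that elsewhere. Wide peaks overlap others more easily, so the shares were also taken within quintiles of RAD21 peak width. The share at starts was below that elsewhere in all 5 quintiles of both lines. In the second widest quintile of CHM13 peaks (787 to 1007 bp) it was 54.5% (51.5 to 57.5) at starts and 80.2% (79.6 to 80.9) elsewhere, and in the narrowest quintile 21.7% (18.9 to 24.8) and 25.8%. The narrowest RPE-1 peaks (224 to 360 bp) gave 5.33% (3.14 to 8.90) at starts and 29.7% (28.1 to 31.5) elsewhere.

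**Figure D3:**
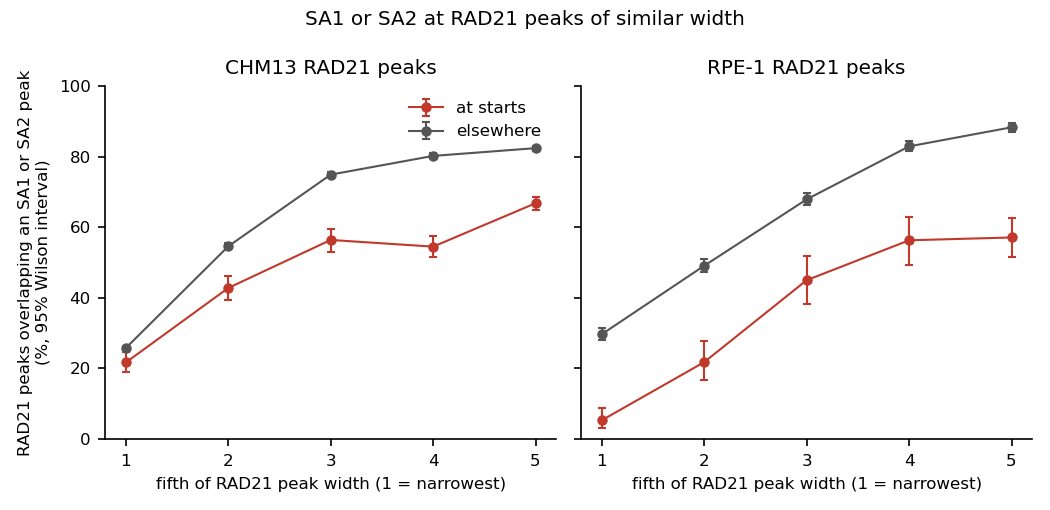
Share of RAD21 peaks that overlap an SA1 or SA2 peak by quintile of RAD21 peak width, at protein-coding starts and elsewhere, with 95% Wilson intervals. The points at starts lie below those elsewhere in every quintile of both lines, from 5.33% against 29.7% in the narrowest RPE-1 quintile to 66.8% against 82.4% in the widest CHM13 quintile.

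Which SA subunit accompanied RAD21 also differed. In CHM13 cells, SA1 without SA2 was found at 10.2% (9.51 to 11.0) of RAD21 peaks at starts against 4.55% (4.39 to 4.71) elsewhere. SA2 without SA1 was at 12.4% (11.6 to 13.3) against 14.3% (14.0 to 14.5), and both together at 31.7% (30.6 to 32.9) against 44.1% (43.8 to 44.5). Where the RAD21 centre was within 250 bp of the start, SA1 without SA2 reached 15.0% (13.7 to 16.4) and SA2 without SA1 10.3% (9.16 to 11.5). In RPE-1 cells SA1 without SA2 went in the opposite direction, at 12.0% (10.3 to 14.0) of RAD21 peaks at starts and 24.9% (24.2 to 25.6) elsewhere. Both subunits together were there at 19.5% (17.4 to 21.9) and 33.5% (32.7 to 34.3), and SA2 without SA1 at 5.85% (4.64 to 7.35) and 5.12% (4.76 to 5.50). All these are shares of all RAD21 peaks, so they also carry the lower overlap with any SA subunit at starts.

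Read from the SA lists, SA1 in CHM13 cells stood apart from SA2. Of SA1 peaks at starts, 18.1% (16.8 to 19.5) overlapped no RAD21 peak against 4.30% (4.09 to 4.51) elsewhere. For SA2 it was the other way round, 0.410% (0.229 to 0.733) at starts and 3.30% (3.13 to 3.47) elsewhere. In RPE-1 cells, SA1 peaks without RAD21 made up 4.96% (3.20 to 7.62) at starts and 21.9% (21.1 to 22.7) elsewhere, and SA2 peaks without RAD21 3.44% (1.88 to 6.21) and 12.4% (11.6 to 13.3). The 556 CHM13 SA1 peaks at starts without RAD21 were narrow, with a median width of 572 bp against 714 bp for those with RAD21, and 86.9% (83.8 to 89.4) of their centres lay within 250 bp of the start against 48.1% (46.1 to 50.0). The 5 with centres nearest to a start lay at PSMB2 (a proteasome subunit), NSL1 (a kinetochore protein), ATRIP (the partner of the ATR checkpoint kinase), BRD9 (a chromatin remodelling subunit) and MFAP3, each 1 bp from the start and 450 to 628 bp wide. Only 11 CHM13 SA2 peaks at starts lacked RAD21, and among the 5 nearest to a start were 3 protocadherin genes (PCDHB11, PCDHA8, PCDHA6), beside TANK and UBQLN2.

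Taken over genes, the CHM13 combinations fell into groups with different promoters. A promoter was the 250 bases before and 50 after the start. A RAD21 peak with neither SA subunit was found at 3004 of 7343 genes with a CHM13 peak, 40.9%, all 3 subunits at 1987, 27.1%, RAD21 with SA1 at 809, RAD21 with SA2 at 801, SA1 alone at 730 and SA2 alone at 12. Divergent starts made up 31.5% (28.2 to 35.0) of the SA1-alone genes and 20.9% (18.2 to 23.8) of those with RAD21 and SA1, but 5.49% (4.12 to 7.29) of those with RAD21 and SA2, 7.75% (6.65 to 9.01) of those with all 3 and 6.63% (6.21 to 7.08) of genes without a CHM13 peak. The window of a divergent start also holds the second start, and a single peak can count for both genes. The motif CCGGAAGT, searched on both strands like all motifs below, was in 17.9% (15.3 to 20.9) of SA1-alone promoters, the set from which the second group of printed sequences comes, and in 15.6% (13.2 to 18.2) of those with RAD21 and SA1. It was in 3.25% (2.22 to 4.71) of promoters with RAD21 and SA2 and in 5.11% (4.82 to 5.43) of all promoters. AAGATGGCG, which YY1 recognises, was in 4.93% (3.58 to 6.75) of SA1-alone promoters and 1.88% (1.70 to 2.08) of all. With RAD21 and SA1 it was in 4.82% (3.55 to 6.52). The NRF1 motif GCATGCGC was in 6.85% (5.23 to 8.92) of SA1-alone promoters, 2.97% (2.00 to 4.38) of those with RAD21 and SA1 and 3.75% (3.50 to 4.02) of all.

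GGGCGG, the GC box bound by Sp1, was in 69.3% (67.7 to 71.0) of promoters with CHM13 RAD21 alone, 62.9% (59.5 to 66.2) of those with RAD21 and SA2, 57.8% (54.2 to 61.3) of those with SA1 alone and 45.8% (45.0 to 46.7) of those with no peak in any list. The TATA motif TATAAA was in 6.95% (6.36 to 7.59) of promoters with a CHM13 RAD21 peak and 13.1% (12.5 to 13.7) of those with none. The E-box CACGTG was in 9.17% (8.49 to 9.89) and 7.76% (7.30 to 8.24), and among the CHM13 combinations it ran from 8.72% with RAD21 alone to 11.5% with SA1 alone. These letters describe the sequence and do not show that a factor is bound.

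Starts with a peak were rich in CpG in CHM13 cells. From the lowest to the highest quintile of CpG observed over expected, the share of genes with a CHM13 RAD21 peak went from 13.1% (12.1 to 14.2) to 46.0% (44.5 to 47.6), and with an SA1 peak from 6.21% (5.50 to 7.00) to 26.4% (25.1 to 27.8). CHM13 SA2 went from 7.46% (6.69 to 8.32) to 18.8% (17.6 to 20.0) in the second highest quintile and 16.4% (15.3 to 17.6) in the highest. RPE-1 RAD21 was highest in the second highest quintile with 8.74% (7.90 to 9.65) and lowest in the first with 2.88% (2.40 to 3.44). RPE-1 SA1 lay between 1.60% (1.26 to 2.04) and 2.38% (1.95 to 2.90), with intervals that overlapped. RPE-1 SA2 went from 1.10% (0.822 to 1.48) in the lowest quintile to 1.98% (1.59 to 2.46) in the middle one. In the highest quintile RPE-1 SA2 was at 1.38% (1.06 to 1.79). At divergent starts CHM13 SA1 was at 32.3% (30.2 to 34.6) against 16.3% (15.8 to 16.8) of other starts, while CHM13 SA2 was at 11.6% (10.1 to 13.2) against 14.2% (13.8 to 14.8) and RPE-1 SA1 at 0.877% (0.532 to 1.44) against 2.14% (1.94 to 2.36). A divergent window holds a second start and a single peak can count for both genes, so these shares are not per start. The intervals take the genes as independent. Within CpG quintiles, CHM13 SA1 was higher at divergent starts in the upper 4, with 38.1% (34.5 to 41.9) against 24.1% (22.7 to 25.6) in the highest, and at 5.88% (1.63 to 19.1) against 6.21% (5.50 to 7.01) in the lowest. CHM13 SA2 was lower at divergent starts in the upper 3, with 10.5% (8.40 to 13.1) against 17.6% (16.3 to 18.9) in the highest, but higher in the second lowest, with 20.0% (13.2 to 29.1) against 11.6% (10.6 to 12.6).

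**Figure D4:**
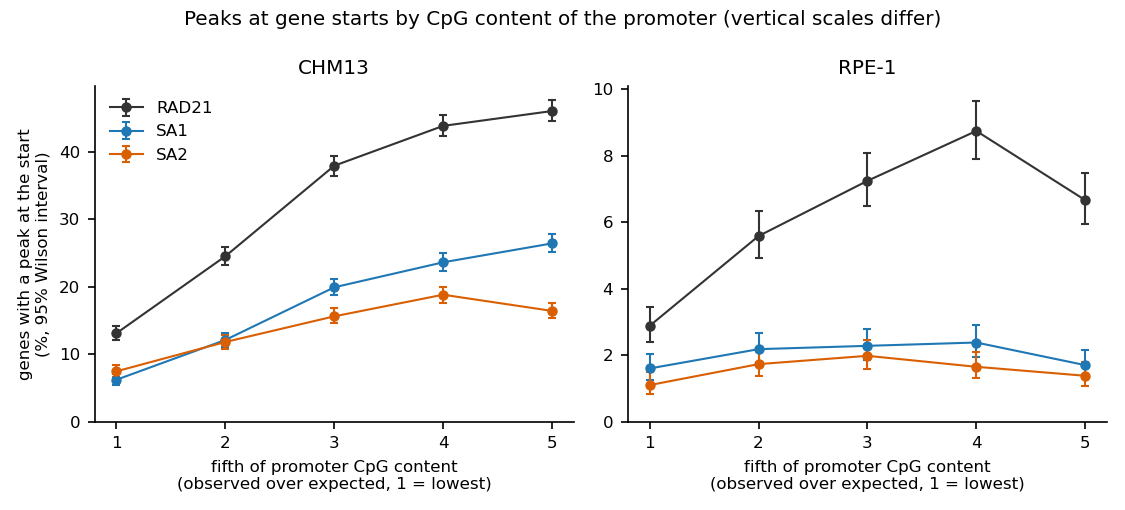
Share of genes with a peak at the start by quintile of promoter CpG content (observed over expected), with 95% Wilson intervals, on a separate vertical scale for each line. CHM13 RAD21 and SA1 increase through all 5 quintiles, to 46.0% and 26.4%, and the RPE-1 SA lists stay below 3%.

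The CTCF consensus was rarer in peaks at starts than in other peaks. Within the 300 bases around the centre it was found in 1.80% (1.49 to 2.16) of CHM13 RAD21 peaks at starts and 5.14% (4.97 to 5.31) elsewhere, and in RPE-1 RAD21 in 8.61% (7.13 to 10.4) and 17.3% (16.6 to 17.9). Among CHM13 RAD21 peaks at starts it was in 2.82% (2.31 to 3.44) of those with SA1 or SA2 and 0.573% (0.353 to 0.929) of those with neither, and elsewhere in 7.31% (7.06 to 7.56) and 1.44% (1.30 to 1.60). Among RPE-1 RAD21 peaks at starts the intervals overlapped, with 9.89% (7.42 to 13.1) and 7.84% (6.10 to 10.0). The same-sized window around all protein-coding starts held it in 0.325% (0.255 to 0.415). No promoter of the 730 SA1-alone genes held it, which allows a share of up to 0.523% by the Wilson interval, against 2.26% (1.70 to 3.02) of promoters with all 3 CHM13 subunits and 6.14% (3.69 to 10.0) of those with a peak in all 6 lists.

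Taken from the sequence instead of the peaks, 172 consensus matches lay within 1 kb of a protein-coding start. Most were in a peak, with 80.2% (73.6 to 85.5) in CHM13 RAD21, 64.5% (57.1 to 71.3) in CHM13 SA1, 61.6% (54.2 to 68.6) in CHM13 SA2 and 57.6% (50.1 to 64.7) in RPE-1 RAD21. RPE-1 SA1 covered 23.3% (17.6 to 30.1) and RPE-1 SA2 19.2% (14.0 to 25.7). Of the matches, 123 were upstream of the nearest start and 49 downstream. Among matches in a peak of any list, 70.0% (62.0 to 77.0) of 140 read in the direction of the gene, as at PLXNB3, ABCC12, KCTD14 and EIF3C above, while C1QC and AHCYL1 were among those that read against it. This share was 73.6% (64.5 to 81.0) upstream of the start and 58.8% (42.2 to 73.6) of 34 downstream. Of the 32 matches without a peak, 43.8% (28.2 to 60.7) read in the direction of the gene. Few starts hold such a strict match, and weaker CTCF sites are not counted.

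Gene starts with a peak in RPE-1 cells nearly always had one of the same subunit in CHM13 cells. This was so for 96.9% (95.8 to 97.8) of the 1242 RAD21 genes, 98.3% (96.5 to 99.2) of the 405 SA1 genes and 99.0% (97.2 to 99.7) of the 313 SA2 genes. As shares of the longer CHM13 lists the same genes were 18.2%, 11.3% and 11.1%. Counted over peaks, 96.6% (95.4 to 97.5) of RPE-1 RAD21 peaks at starts and 97.1% (96.9 to 97.4) elsewhere overlapped a CHM13 RAD21 peak, and the intervals at starts and elsewhere also overlapped for SA1 and SA2. In the other direction the SA subunits were lower at starts. Of CHM13 SA1 peaks, 13.7% (12.5 to 15.0) at starts overlapped an RPE-1 SA1 peak against 28.4% (28.0 to 28.9) elsewhere, and SA2 gave 12.1% (10.9 to 13.4) and 14.3% (13.9 to 14.6). RAD21 gave 20.2% (19.2 to 21.2) and 19.4% (19.1 to 19.7), with intervals that overlapped. By combination, an RPE-1 peak of any subunit was found at 53.2% (51.0 to 55.4) of genes with all 3 CHM13 subunits, 1.53% (1.15 to 2.04) of those with RAD21 alone and 1 of the 730 with SA1 alone. Over all genes this share was 6.36% (6.03 to 6.71), and over genes without a CHM13 peak 0.285% (0.206 to 0.394).

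Of the 228 genes with a peak in all 6 lists, the 10 with the CHM13 RAD21 centre nearest the start were CFAP68, EPHB3, XXYLT1, COMTD1, GNAI2, TINCR, EID2B, SCRN2, AHCY and TCTN3. At GNAI2 (an inhibitory G protein subunit, CHM13 RAD21 peak at chr3:50225928-50226695) the 6 centres lay between -65 and 19 bp, and the widths ran from 768 bp for CHM13 RAD21 to 287 bp for RPE-1 SA2. TINCR gave centres between -61 and 37 bp. At EPHB3 (an ephrin receptor) the CHM13 RAD21 centre was at 8 bp in a peak of 1578 bp, and the RPE-1 centres were at -330, -374 and -328 bp in peaks of 676, 490 and 424 bp. XXYLT1 was similar, with CHM13 RAD21 at 14 bp and the RPE-1 centres between -590 and -552 bp. At AHCY, which breaks down S-adenosylhomocysteine, CHM13 SA1 was at 7 bp while CHM13 SA2 and the RPE-1 lists had centres between -1073 and -1048 bp, so a peak in every list did not always mean the same site. Only 2 genes had peaks of all 3 RPE-1 subunits and none in CHM13 cells. These were SOX15 (a transcription factor), with centres at 616, 591 and 627 bp, and NALF1, with centres at -897, -891 and -859 bp.

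Of 18 genes for cohesin subunits and regulators, 9 had a CHM13 peak of any subunit (50.0%, 29.0 to 71.0), an interval that includes the 36.8% of all genes. STAG1, which encodes SA1, had a peak in all 6 lists, with a CHM13 RAD21 peak of 2469 bp over the start, centred at 110 bp and an RPE-1 SA2 peak of 332 bp centred at 45 bp. STAG2, which encodes SA2, had CHM13 peaks of RAD21, SA1 and SA2 centred at 263, 244 and 288 bp and an RPE-1 RAD21 peak at 302 bp. PDS5A and PDS5B, which regulate release of cohesin, had all 3 CHM13 subunits, with RAD21 peaks of 2106 and 2190 bp. At the loader NIPBL and the release factor WAPL there was a CHM13 RAD21 peak alone, and at CDCA5 (sororin, which protects cohesion) an SA1 peak alone. No list had a peak at RAD21, SMC1A, SMC3 or the loader subunit MAU2. All 6 of the architectural factors had a CHM13 peak, and none had an RPE-1 peak (0 to 39.0%, which includes the 6.36% of all genes). At CTCF the RAD21, SA1 and SA2 peaks were 1495, 682 and 1128 bp wide, whereas YY1 had SA1 alone and LDB1, MAZ, SMCHD1 and ZNF143 had RAD21 alone. Of 29 centromere and kinetochore genes, 8 had CHM13 RAD21 and 8 SA1 (27.6%, 14.7 to 45.7, each), and 2 had SA2. CENPB, which encodes the protein that binds alpha satellite DNA, had CHM13 centres at -244, -251 and -248 bp and an RPE-1 RAD21 centre at -256 bp.

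The interval of the CHM13 SA1 share lay above the 17.7% of all genes in several gene groups. Among them were 4 groups, those of mitochondrial and cytosolic ribosomal proteins, complex I and the proteasome. It was also so for housekeeping reference genes (37.5%, 18.5 to 61.4) and clustered protocadherins (41.5%, 29.3 to 54.9). The sets were chosen with earlier results of these data known, so their shares are a description beside the background. Of 78 mitochondrial ribosomal protein genes 45 had SA1 (57.7%, 46.6 to 68.0, against 17.7%), 29 had RAD21 (37.2%, 27.3 to 48.3, against 33.1%) and 4 had SA2 (5.13%, 2.01 to 12.5, against 14.0%). SA1 alone was found at 24 of them (30.8%, 21.6 to 41.7, against 3.66%), with centres between -198 and 365 bp, for example MRPS31 at 7 bp, MRPS11 at 6 bp and MRPL55 at -2 bp. Respiratory complex I subunit genes had SA1 at 18 of 37 (48.6%, 33.4 to 64.1) and SA2 at 4, with SA1 alone at NDUFB7 (-7 bp) and NDUFA9 (55 bp). Cytosolic ribosomal protein genes had SA1 at 30 of 80 (37.5%, 27.7 to 48.5), RAD21 at 28 and SA2 at 8, and proteasome genes had SA1 at 13 of 39 (33.3%, 20.6 to 49.0), RAD21 at 9 and SA2 at 3. In RPE-1 cells, SA1 was at 1 of the 78 mitochondrial ribosomal protein genes, MRPL39, at none of the complex I or cytosolic ribosomal protein genes and at 1 proteasome gene, PSMD3. All 4 intervals include the 2.03% of all genes.

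Housekeeping reference genes had CHM13 RAD21 at 12 of 16 (interval 50.5% to 89.8%, against 33.1%), SA1 at 6 and SA2 at 5. ACTB (beta-actin) had peaks in 5 lists, and GAPDH had CHM13 RAD21 alone at 201 bp. The ACTB centres lay between 99 and 404 bp from chr7:5563902. That is the outermost start of its gene record, which need not be the start of its canonical transcript. RNA polymerase II subunit genes had CHM13 RAD21 at 6 of 13 (46.2%, 23.2 to 70.9, against 33.1%). SA1 was at 4 (30.8%, 12.7 to 57.6, against 17.7%) and SA2 at 2 (15.4%, 4.33 to 42.2, against 14.0%). All 3 intervals include the share of all genes, and POLR2D and POLR2J had all 3 subunits. Among 508 zinc-finger genes named ZNF, RAD21 was at 31.5% (27.6 to 35.7), SA1 at 16.1% (13.2 to 19.6) and SA2 at 10.2% (7.89 to 13.2), the first 2 with intervals that include the background.

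Clustered protocadherins, neuronal adhesion proteins with tandem promoters on chromosome 5 that are known for CTCF sites, had the highest share of SA2 among the 17 groups. Of 53 genes 25 had CHM13 RAD21 (47.2%, 34.4 to 60.3), 22 had SA1 (41.5%, 29.3 to 54.9) and 23 had SA2 (43.4%, 31.0 to 56.7, against 14.0%). All 3 were found at 17 genes (32.1%, 21.1 to 45.5, against 9.95%), among them PCDHB2, PCDHB13 and PCDHB15 with RAD21 centres at -51, 0 and -48 bp. PCDHGA11 had a peak in all 6 lists, and 4 of the 53 had an RPE-1 RAD21 peak (7.55%, 2.97 to 17.9). Reads from such similar genes may be divided among the copies.

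Several gene families had few peaks. Of 415 olfactory receptor genes 4 had a CHM13 RAD21 peak (0.964%, 0.375 to 2.45), among them OR52N2, which had a peak in all 6 lists. Of 55 keratin genes 4 had CHM13 RAD21 (7.27%, 2.86 to 17.3), including KRT8 and KRT18, which share a peak of 1297 bp. Replication-dependent histone genes had RAD21 at 15 of 69 (21.7%, 13.6 to 32.8), SA1 at 2, H2AC21 and H3C8, and no SA2 (0%, up to 5.27%). HOX genes had RAD21 at 7 of 39 (17.9%, 8.98 to 32.7), with HOXB5 in 5 lists. Genes of trophoblast, the tissue of a mole, had CHM13 RAD21 at 7 of 18 (38.9%, 20.3 to 61.4), with a peak of 3137 bp at the imprinted gene PEG10, CHM13 SA1 at 1, CHM13 SA2 at 2 and RPE-1 RAD21 at 2 (11.1%, 3.10 to 32.8). All 4 intervals include the share of all genes. The 2 with RPE-1 RAD21 were PEG10 and EOMES, and EOMES had no CHM13 peak. Genes of retinal pigment epithelium had CHM13 RAD21 at 1 of 20, RDH5 (5.00%, 0.888 to 23.6, against 33.1%), and RPE-1 RAD21 at 3 of 20 (15.0%, 5.24 to 36.0), an interval that includes the 6.22% of all genes. Those were RDH5, a retinol dehydrogenase gene in 5 lists, and LRAT and MERTK, which had an RPE-1 RAD21 peak alone.

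**Figure D5:**
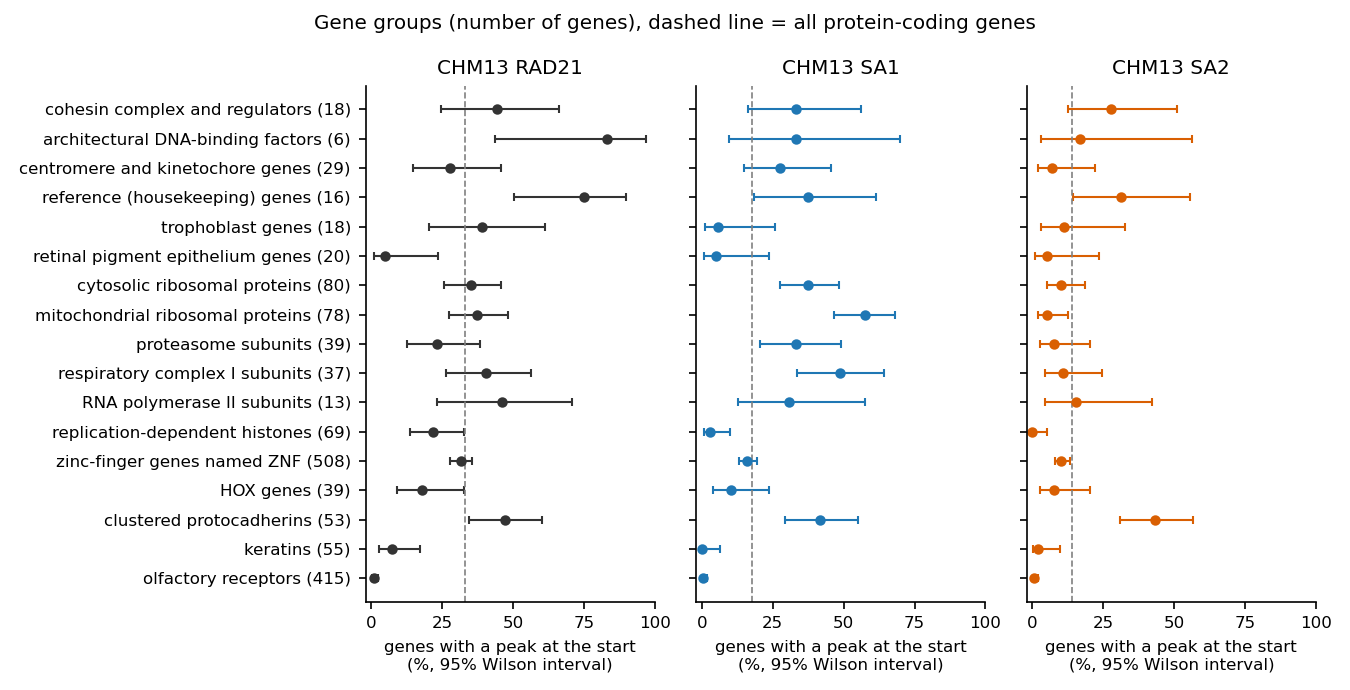
Share of genes of each group with a CHM13 RAD21, SA1 or SA2 peak at the start, with 95% Wilson intervals and the share of all protein-coding genes as a dashed line. The SA1 interval lies above its background for mitochondrial and cytosolic ribosomal, proteasome and complex I genes, and also for reference genes and clustered protocadherins. The SA2 interval lies below its background for mitochondrial ribosomal genes and includes it for cytosolic ribosomal, proteasome and complex I genes. SA2 is highest in clustered protocadherins, at 43.4%.

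The spacing of starts went with the share of RAD21 and SA2 in CHM13 cells. CHM13 RAD21 was at 38.1% (36.9 to 39.3) of genes with no other protein-coding start within 50 kb and at 28.4% (26.3 to 30.6) of those with 6 or more. SA2 gave 19.0% (18.1 to 20.0) and 10.9% (9.50 to 12.5), and SA1 showed no such decrease, with 16.7% (15.8 to 17.6) and 20.0% (18.1 to 21.9). In RPE-1 cells the intervals overlapped in all 3 lists, with 6.76% and 5.61% for RAD21, 2.38% and 1.51% for SA1, and 1.50% and 1.75% for SA2. Farther from the start most genes had a peak in the neighbourhood. Within 10 kb, 57.2% of genes had a CHM13 RAD21 peak and 21.2% an RPE-1 RAD21 peak, and within 100 kb 95.8% and 78.1%.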

How the data were processed

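RAD21, SA1 and SA2 were profiled by ChIP-seq in CHM13 (3 replicates) and RPE-1 (2 replicates) cells, with input. The deposited files are 6 peak lists on each of 2 builds, hg38 and CHM13 v1.0. Each holds start and end positions in bp and a score of 0 in every row. The authors aligned paired reads with bwa mem, filtered with samtools, called peaks per replicate with macs, merged replicates with GenomicRanges and dropped loci seen in fewer than 2 replicates. The methods state this for CHM13 v1.0, and hg38 is named in the submitters' processing notes, which also list bcl2fastq 2.20. Peaks were used as deposited on hg38, and the CHM13 v1.0 lists were only counted. Total counts of reads are not in the lists, and depth enters only through which peaks were called. The paper reports reads per library, and a CHM13 RAD21 replicate had far fewer than the other CHM13 libraries. The part of that replicate in the CHM13 SA1 peaks without RAD21 was not tested.

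Gene starts came from GENCODE 44 (19970 protein-coding and 18756 lncRNA genes). The windows covered 36.6 Mb, 1.26% of 2911 Mb without N. A gene record starts at its outermost transcript, and 3312 genes had their canonical transcript start over 1 kb away. Expected counts under uniform placement were calculated without random draws, and the calculation was tested on simulated data. Shares carry Wilson, differences Newcombe and ratios exact Poisson intervals at 95%, which cover counting error only. Python 3.11.15 was used with numpy 2.4.6, scipy 1.17.1, pandas 2.3.3 and matplotlib 3.10.9.

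Members and gene lists were chosen with earlier results of these data known. Named genes were members of the 17 gene lists, the 10 genes in all 6 lists with the CHM13 RAD21 centre nearest the start, genes of all 3 RPE-1 lists and no CHM13 list, the starts under the 5 widest CHM13 RAD21 peaks, and the 5 nearest SA1 and SA2 peaks without RAD21. Members of lists were picked as examples after their values were seen, as were the combination of CHM13 subunits with promoter features, the second group of sequences and the matches within windows. The alternatives tried were the window, the canonical start, the peak centre, joined or wide peaks, the overlap rule, peak width and chromosomes.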

Additional observations from a re-analysis of the deposited data

Results flagged for a closer look

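The 6 lists on CHM13 v1.0 were not used in the comparisons, and they hold peaks of their own, which is why they are given here. They number 74116 peaks for CHM13 RAD21, 36986 for CHM13 SA1, 43746 for CHM13 SA2, 16078 for RPE-1 RAD21, 10910 for RPE-1 SA1 and 9579 for RPE-1 SA2. The hg38 list of RPE-1 SA2, with 6416 peaks on all sequences, had 0.670 times as many, while the other 5 lists had 0.933 to 1.04 times as many. No gene annotation of CHM13 v1.0 was used here, so peaks at gene starts were not counted on that build.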

How the results depend on the processing

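Each of the 17 main values was recomputed under the alternatives, 83 values in all, of which 65 stayed within the counting interval or within 1.5 times the main count and 18 moved. None changed direction. With a window of 500 bp the ratio to uniform placement was 6.23 for CHM13 RAD21, 6.37 for CHM13 SA1, 4.56 for CHM13 SA2, 5.56 for RPE-1 RAD21, 2.68 for RPE-1 SA1 and 3.37 for RPE-1 SA2. With the peak centre in the window it was 5.67 for CHM13 RAD21, 5.51 for CHM13 SA1, 4.06 for CHM13 SA2 and 4.87 for RPE-1 RAD21, the difference in SA overlap was -10.6 points in CHM13, and the shares of RPE-1 genes with a CHM13 peak were 91.8% for RAD21 and 95.3% for SA1. Both changes narrow the region counted. With the canonical transcript start the ratio was 4.77 for CHM13 RAD21, 1.97 for RPE-1 SA1 and 2.40 for RPE-1 SA2, and the difference in SA overlap in RPE-1 was -29.5 points. The cause was not tested. Among RAD21 peaks between the quartiles of width, the difference in SA overlap in CHM13 was -18.2 points against -8.60 for all peaks.

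No paired analysis was possible because each list pools its replicates. For the same reason leaving out a replicate was not run, and a stricter peak threshold was not run as the lists hold no scores. Leaving out peaks wider than 5 kb gave a value for CHM13 RAD21 and SA1, the lists that hold such peaks. The part of depth in the length of the lists was not tested, and a start without a peak is not shown to lack cohesin.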
